A study of Mus musculus with 12 samples.

Results

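The enzymes that attach glucuronic acid, glutathione or sulfate to small molecules were followed over 12 liver arrays of diabetic and control mice. Members were the genes whose symbol starts with Ugt1, Ugt2, Ugt3, Gsta, Gstk, Gstm, Gsto, Gstp, Gstt, Gstz or Sult, read from transcript clusters annotated to exactly 1 symbol. Each gene took the value of its cluster with the highest mean over the 12 arrays. This gave 45 of 19938 genes, of which 19 were glutathione transferases, 16 sulfotransferases and 10 glucuronosyltransferases. A further 12 clusters named such genes together with others and were not counted as members. They included the joint Ugt1a cluster, so no Ugt1 gene was a member, and neither were Gsta1 and Sult2a1.

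The study set KK-Ay mice, obese and diabetic carriers of the agouti allele A-y, against KK mice, the background strain that lacks it. Gene expression was measured on Affymetrix arrays, and values are on the log2 scale. There were 6 groups of 2 arrays, named here by their titles, 6Y, 16Y and 42Y (the Y arrays) and 1, 6K and 42WKK (the other arrays). The series record lists the 6 Y arrays as type 2 diabetes (T2D) and the 6 others as control, whereas the sample records call 42Y control and 6K T2D. According to the methods, mice were 42 weeks old when analysed. The age of the other groups and the strain of group 1 are not given by array in the sources used here, and neither is a treatment. Whether the 2 arrays of a group are 2 mice is not said, and p-values therefore reflect only the spread between arrays, which may be technical.

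Agouti, the gene that the A-y allele misexpresses, lay between 6.78 and 7.06 in the 6 Y arrays and between 5.20 and 5.51 in the 6 others. Raly was at 6.59 to 6.81 in Y arrays and 7.21 to 7.73 in the others, and Eif2s2 at 7.20 to 7.67 against 8.15 to 8.88. Each gene split the arrays by the letter Y without overlap (p = 0.00216 by a two-sided exact permutation test, which cannot go lower with 6 against 6 arrays, adjusted p = 0.00216 over 3 tests), with 42Y on the Y side and 6K on the other. That test treats all arrays as independent, although they come in pairs that may not be separate mice. The sample records name blood and the methods liver. Array medians of 6 hepatocyte genes were 13.15 to 13.35, against 3.69 to 4.35 for 3 T cell genes. Y chromosome genes had array means of 6.40 to 6.76 on all arrays, and Xist stayed at 2.29 to 2.91. The 2 arrays of a group correlated at 0.983 (42Y) to 0.991 (42WKK).

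Conjugation follows the oxidation of drugs, hormones, bile acids and other lipophilic compounds, and it makes them soluble enough to leave in bile or urine. Glucuronosyltransferases (Ugt genes) take glucuronic acid from UDP-glucuronic acid, sulfotransferases (Sult genes) take sulfate from the donor PAPS, and glutathione transferases (Gst genes) join glutathione to reactive electrophiles. Hepatocytes hold most of this capacity, and the nuclear receptors CAR and PXR, the aryl hydrocarbon receptor and NRF2 are known to induce many of the genes. In a tissue sample, fewer cells of a type and less RNA per cell cannot be told apart.

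Of the 45 genes, 9 passed the F test or at least 1 comparison of groups, and 36 passed neither. The share of all clusters that passed any of these tests was not computed, so this count is a description only. Differences among the 6 group means were tested with limma over all 35556 clusters, and a test was passed at a Benjamini-Hochberg adjusted p under 0.05. By the F test over all 6 groups, 8 of the 45 genes (17.8%) passed, against 5.43% of all clusters. Dim clusters rarely pass, and 13 members had a mean under 6. Among the 32 members with a mean of at least 6, 7 (21.9%) passed, against 11.9% of all clusters at that level. The 8 genes were the sulfotransferases Sult1e1 (adjusted p = 0.00885), Sult1d1 (adjusted p = 0.0221) and Sult1b1 (adjusted p = 0.0486), the glutathione transferases Gstm6 (adjusted p = 0.0196), Gstt3 (adjusted p = 0.0316), Gstm2 (adjusted p = 0.039) and Gstm3 (adjusted p = 0.044), and the glucuronosyltransferase Ugt2b38 (adjusted p = 0.0481). Among the 8 F calls, only that of Sult1e1 held in every run with a single array left out. Sult1a1 passed in 1 comparison of groups but not by F (adjusted p = 0.0591).

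**Figure D1:**
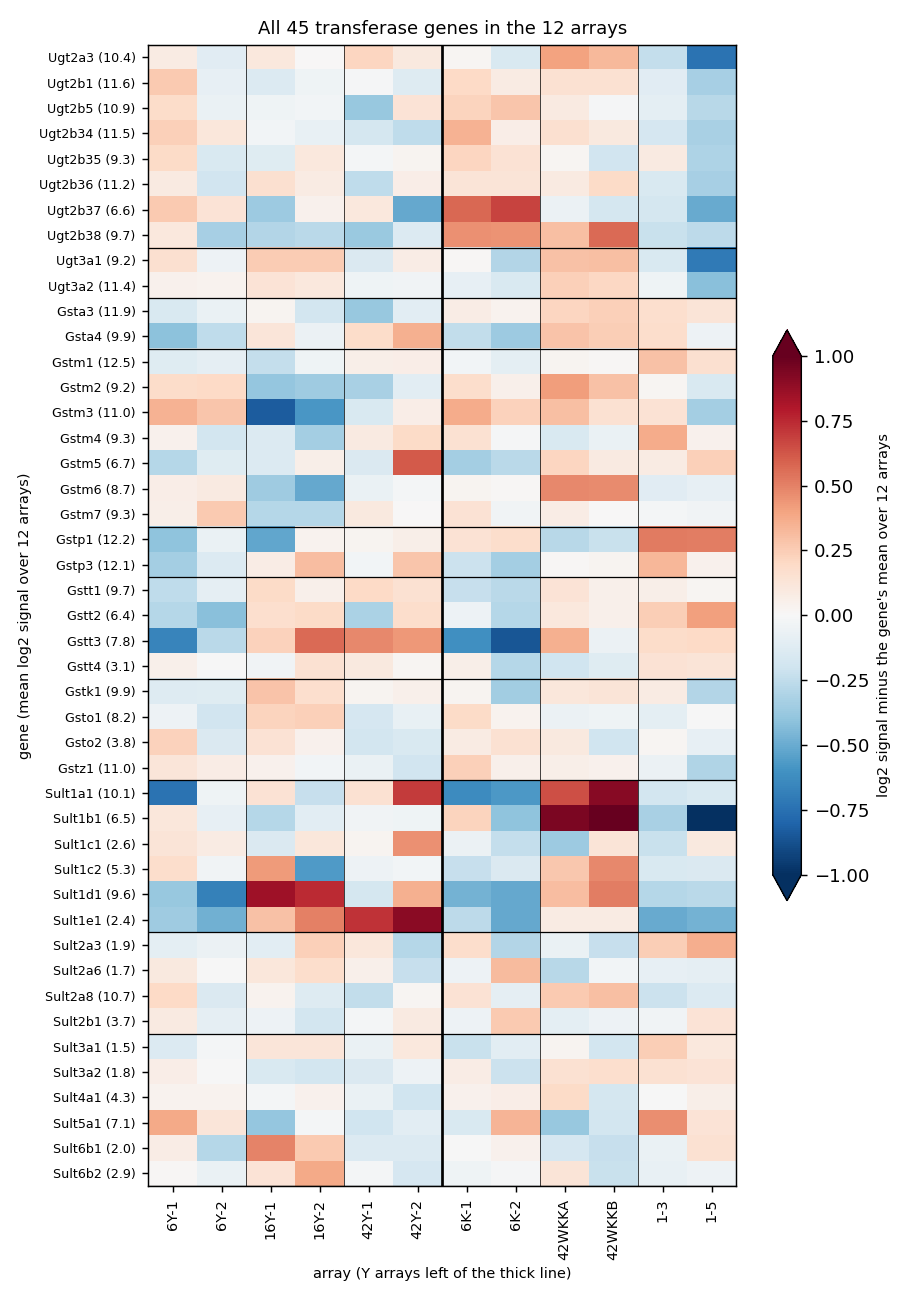
Log2 signal of each of the 45 genes (rows, by subfamily, with the mean over 12 arrays in brackets) as the deviation from that mean in each array (columns, Y arrays left). Blue is below and red above the gene's mean, with Sult1e1 red in the 42Y arrays, Gstm3 blue in 16Y and Sult1b1 red in 42WKK.

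Most of the family moved little. The range of the 6 group means had a median of 0.47 over the glutathione transferases, 0.45 over the sulfotransferases and 0.45 over the glucuronosyltransferases. The widest range in each family was 1.19 for Gstt3, 1.64 for Sult1b1 and 0.97 for Ugt2b37, which itself did not pass. The Sult1 genes varied most, with a median range of 1.31 over 6 genes, and 3 of them passed by F, against 5.43% of all clusters.

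In 42Y against 42WKK, the comparison of KK-Ay with KK mice at 42 weeks, 3 of the 45 genes passed, 1 higher (Sult1e1) and 2 lower (Gstm2 and Gstm6), while 1.85% of all clusters passed. The median difference of the 45 genes was -0.09, and that of all clusters 0.02. In 16Y against 6Y, 4 genes passed, Sult1d1 and Sult1e1 higher and Gstm3 and Gstm6 lower, against 1.78% of all clusters. Sult1e1 was the 1 gene that passed in 42Y against 6Y (1.83% of all clusters) and in the mean of the Y groups against that of the other groups (0.208%). Sult1a1 was the 1 gene that passed in 42WKK against 6K (1.01%). The comparisons of 16Y and of 42Y with 6Y share the 6Y arrays.

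No gene of the 45 passed in 6Y against 6K, in 42Y against 16Y, or in the test of whether the Y difference at number 42 differed from that at number 6. The share of all clusters that passed was 0.00281%, 0.399% and 0.143% in these limma tests. At an unadjusted p under 0.05, 2 of the 45 genes passed in 6Y against 6K, 9 in 42Y against 16Y and 7 in the test of the difference, where 5.28%, 13.9% and 13.2% of all clusters did. With clusters of a mean of at least 6 alone, 3 genes passed in 42Y against 16Y (Gstm3, Gstm6 and Sult1d1, against 6.85% of the clusters tested) and 2 in the test of the difference (Gstm2 and Gstm6, against 5.28%), and with a variance trend Gstm6 passed in 42Y against 16Y (0.998% of clusters). In 6Y against 6K, 0 genes passed in either fit.

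**Figure D2:**
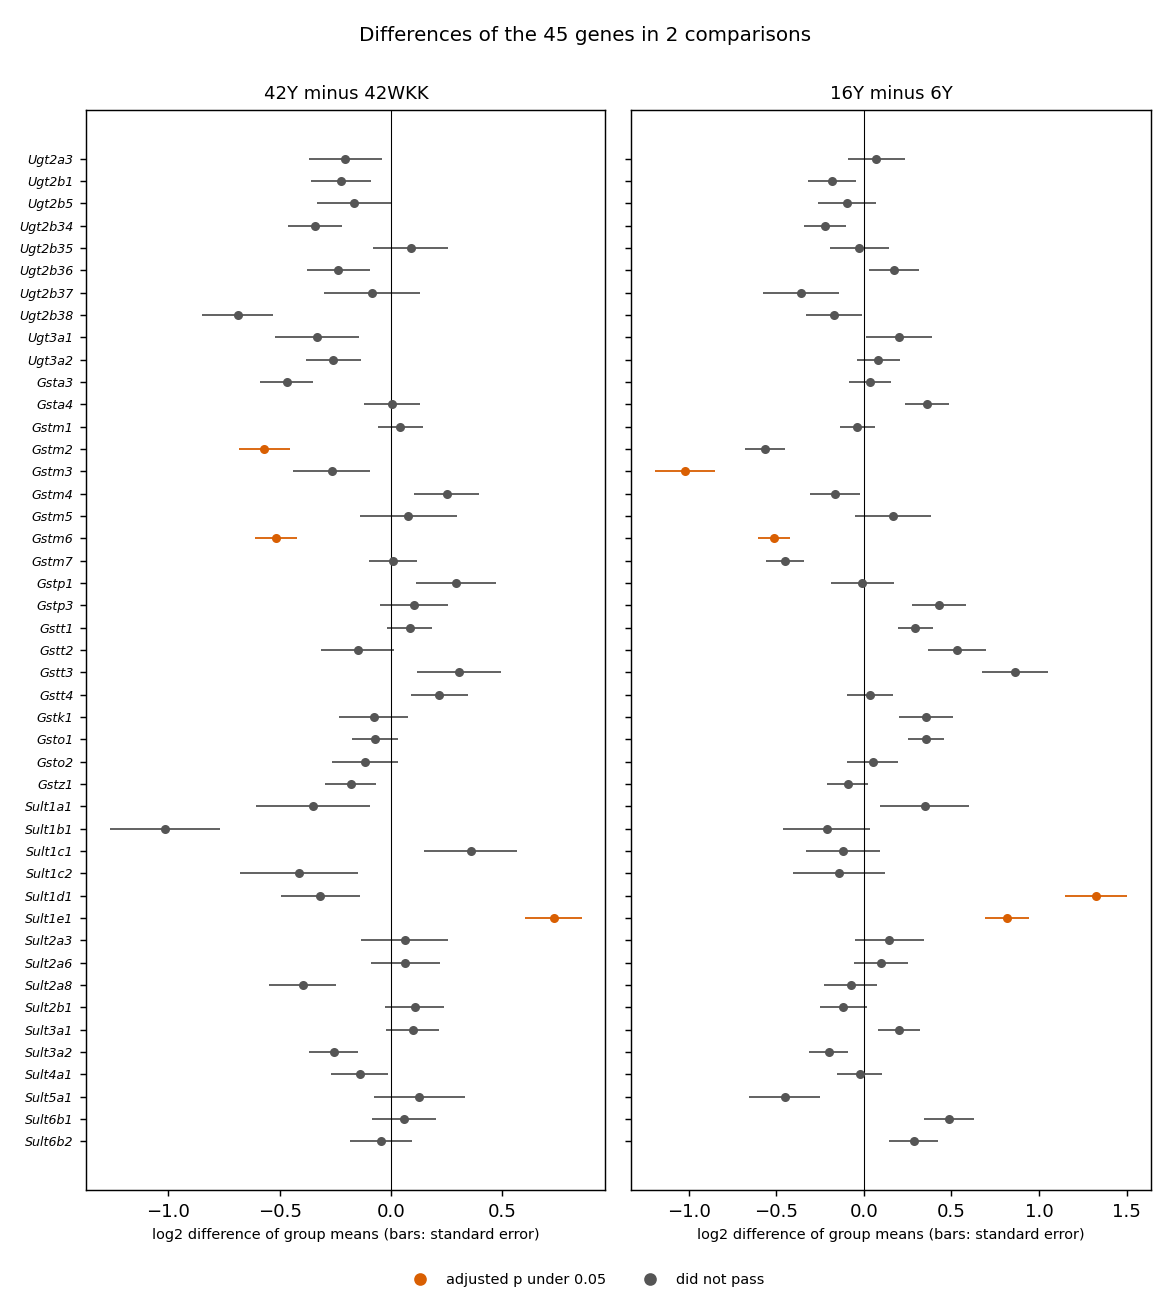
Log2 difference of group means with its standard error for each of the 45 genes, 42Y minus 42WKK on the left and 16Y minus 6Y on the right. Orange points passed at an adjusted p under 0.05 and grey points did not. Sult1e1 lies to the right of 0 in both panels and Gstm6 to the left in both.

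Sult1e1 encodes oestrogen sulfotransferase, which inactivates oestrogens. Its signals were 2.09 and 1.96 in 6Y, 2.73 and 2.95 in 16Y, and 3.16 and 3.35 in 42Y. In the other groups they were 1.94 and 1.97 in 1, 2.18 and 1.93 in 6K, and 2.52 and 2.53 in 42WKK. All 4 arrays of 16Y and 42Y lay above all 8 remaining arrays, and the 2 of 6Y lay among those of 1 and 6K.

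Sult1e1 rose by 0.73 in 42Y against 42WKK (standard error 0.13, 1.66-fold, limma adjusted p = 0.033), by 0.82 in 16Y against 6Y (standard error 0.13, 1.76-fold, adjusted p = 0.0316) and by 1.23 in 42Y against 6Y (standard error 0.13, 2.35-fold, adjusted p = 0.00506). In 6Y against 6K the difference was -0.03 (95% interval -0.32 to 0.26). In 42WKK against 6K it was 0.47 (adjusted p = 0.13), and the test of whether the Y difference at number 42 differed from that at 6 gave 0.76 (adjusted p = 0.142). Over all Y against all other groups it rose by 0.53 (adjusted p = 0.0389), but by 0.47 without 6K (adjusted p = 0.082) and 0.25 without 42Y (adjusted p = 0.323), and these did not pass. The signal was dim, with 7.06 to 25.4% of all clusters at or below it on an array, so a fold change read from it is uncertain. The 42Y against 6Y call and the F call held with each of the 12 arrays left out, although 42Y against 6Y did not pass on the 4 arrays compared alone or with a replicate block (adjusted p up to 0.182). The 42Y against 42WKK call was lost after quantile normalization and with either array of 42Y, 42WKK, 1 or 6Y left out (adjusted p up to 0.212 over all alternatives), that of 16Y against 6Y with either array of 16Y, 6Y, 1 or 42WKK left out (up to 0.14 over all alternatives), and that of Y against other groups with any array left out.

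Sult1d1, a sulfotransferase that acts on catecholamines in mice, stood highest in 16Y. Its signals were 9.19 and 8.89 in 6Y, 10.41 and 10.31 in 16Y, and 9.39 and 9.92 in 42Y, against 9.28 and 9.29 in 1, 9.09 and 9.05 in 6K, and 9.87 and 10.07 in 42WKK. Both 16Y arrays lay above the other 10. The gene rose by 1.32 in 16Y against 6Y (standard error 0.18, 2.50-fold, limma adjusted p = 0.0243). In 42Y against 42WKK the difference was -0.32 (95% interval -0.72 to 0.09), and 42WKK lay 0.90 above 6K (adjusted p = 0.0577), which did not pass. The 16Y against 6Y call was lost with either array of 6Y, 16Y or 42WKK left out, with an adjusted p of up to 0.128 over all alternatives.

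Sult1a1, a phenol sulfotransferase, was highest in the arrays of number 42. It was at 9.39 and 10.08 in 6Y, 10.27 and 9.89 in 16Y, and 10.27 and 10.82 in 42Y, against 9.94 and 9.97 in 1, 9.49 and 9.54 in 6K, and 10.77 and 11.03 in 42WKK. The highest was 42WKKB, followed by 42Y-2 and 42WKKA, and the 6Y arrays differed from each other by more than the other pairs did. The gene rose by 1.38 in 42WKK against 6K (standard error 0.25, 2.60-fold, limma adjusted p = 0.0497). That comparison rests on the 6K arrays, and the call was lost when 6K-1, 6K-2 or either array of 42WKK, 1 or 16Y was left out (adjusted p up to 0.272 over all alternatives). The difference of 42Y against 6Y was 0.81 (adjusted p = 0.162) and that of 42Y against 42WKK -0.35 (95% interval -0.93 to 0.23).

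Sult1b1, which sulfates thyroid hormones, was apart in 42WKK, with 7.47 and 7.53. It was at 6.64 and 6.44 in 6Y, 6.23 and 6.42 in 16Y, and 6.49 and 6.48 in 42Y, against 6.20 and 5.52 in 1 and 6.75 and 6.12 in 6K. All 10 other arrays were below both 42WKK arrays. By single comparisons, 42Y minus 42WKK was -1.02 (standard error 0.25, limma adjusted p = 0.0857) and 42WKK minus 6K 1.06 (adjusted p = 0.0908), and neither passed. The F call was lost after quantile normalization and with any array left out except 1-3 (adjusted p up to 0.181).

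**Figure D3:**
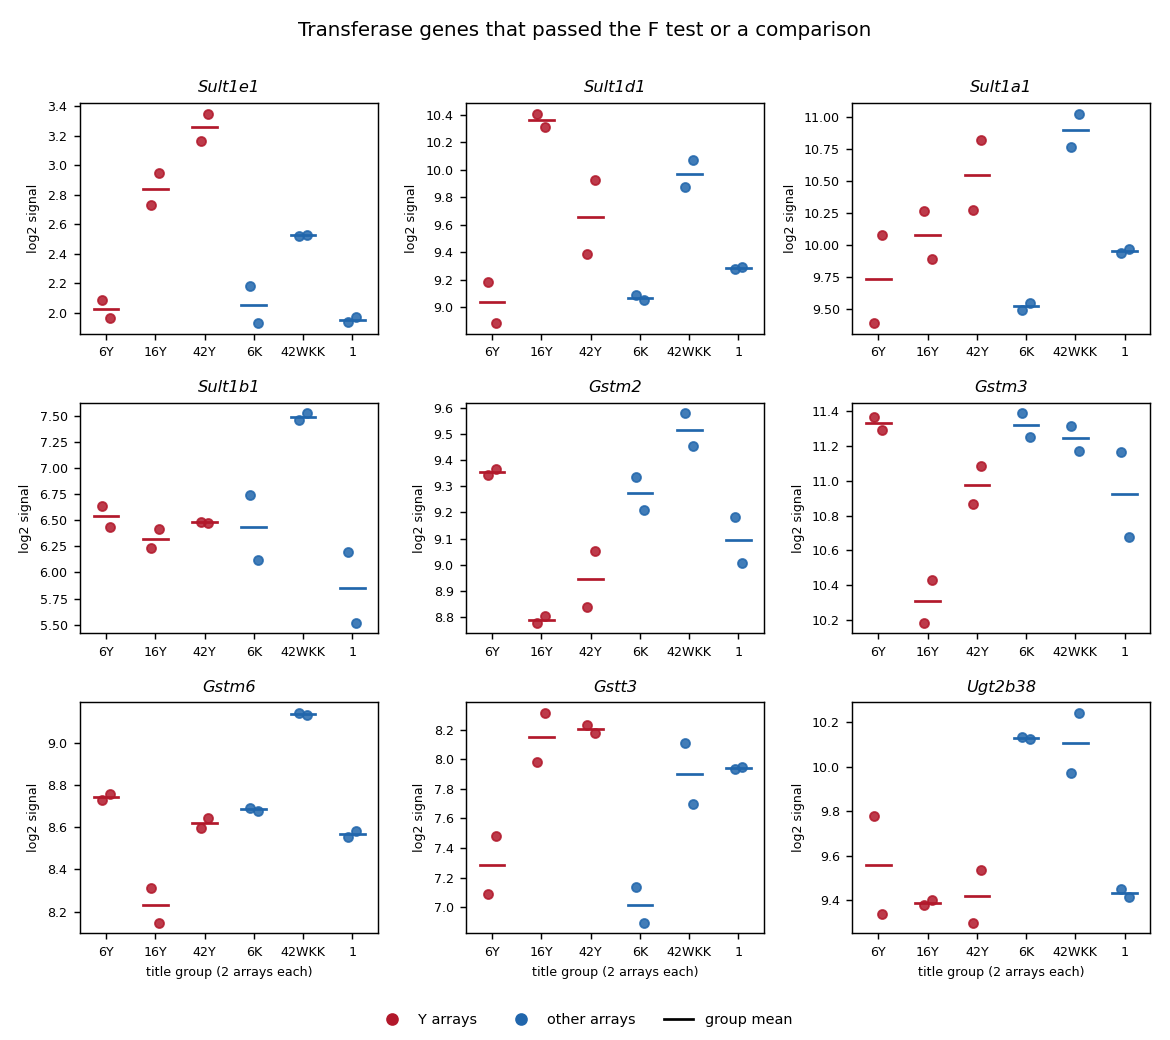
Log2 signal of the 9 genes that passed a test, in the 12 arrays by title group (Y groups in red on the left, others in blue), with a point for each array and a line for the mean of the 2 arrays. Each panel has its own axis. Sult1e1 is highest in 42Y, Sult1d1 in 16Y, Sult1a1, Sult1b1 and Gstm6 in 42WKK, and Gstm3 is lowest in 16Y.

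The genes of Sult1b1, Sult1d1 and Sult1e1 neighbour each other on chromosome 5 in the RefSeq mouse annotation. The windows from 250 bases before to 50 bases after the start of Sult1e1 and Sult1d1 are shown because these were the sulfotransferases that passed between Y groups. They are RefSeq sequences of build GRCm38.p6, 5′ to 3′ on the minus strand, Sult1e1 at chr5:87591562-87591861 and Sult1d1 at chr5:87568957-87569256. Capitals mark matches on either strand to GCGTG, the core of the xenobiotic response element, and to TATAAA.
Sult1e1: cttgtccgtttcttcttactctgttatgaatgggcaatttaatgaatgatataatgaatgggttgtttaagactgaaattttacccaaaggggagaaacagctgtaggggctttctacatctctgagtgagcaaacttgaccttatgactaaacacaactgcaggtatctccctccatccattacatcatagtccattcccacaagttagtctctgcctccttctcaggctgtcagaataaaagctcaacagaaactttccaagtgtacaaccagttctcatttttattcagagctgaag
Sult1d1: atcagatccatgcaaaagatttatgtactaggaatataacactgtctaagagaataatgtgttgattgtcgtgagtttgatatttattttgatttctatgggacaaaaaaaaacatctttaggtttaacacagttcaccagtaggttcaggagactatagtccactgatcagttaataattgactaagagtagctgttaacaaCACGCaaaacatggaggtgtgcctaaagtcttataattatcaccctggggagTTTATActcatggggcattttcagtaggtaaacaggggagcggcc
In the Sult1d1 window GCGTG lies at -47 and TATAAA at 5 bases from the gene's first base, both on the opposite strand. The Sult1e1 window holds neither, nor the antioxidant response element core TGACNNNGC or the E-box CACGTG. Of 32851 windows of mouse genes, 32.4% held GCGTG, 13.6% TATAAA, 12.4% TGACNNNGC and 7.15% CACGTG. Windows were found for 41 of the 45 genes (52 windows), and GCGTG was in 9 of them, TATAAA in 11, TGACNNNGC in 3 (Gsta3, Gstm5 and Gstm7) and CACGTG in 0. The letters alone do not show that a factor binds.

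The other 12 sulfotransferases did not pass in any test. Sult2a8, which sulfates bile acids in mouse liver, ranged from 10.48 to 11.02 over the 12 arrays, with 42Y minus 42WKK at -0.40 (95% interval -0.74 to -0.05, limma adjusted p = 0.229). Sult5a1 lay between 6.75 and 7.60. The remaining 10 had means under 6, among them the cholesterol sulfotransferase Sult2b1 at 3.56 to 4.01, the brain enzyme Sult4a1 at 4.06 to 4.45 and the amine sulfotransferase Sult3a1 at 1.24 to 1.71. Differences in Sult3a1 stayed within -0.10 and 0.20 in the comparisons of 2 groups. The clusters shared by Sult2a1 with its paralogs lay between 1.29 and 2.40.

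Among glutathione transferases, 3 of 7 genes of the mu class (Gstm) and 1 of 4 of the theta class (Gstt) passed by F. The share was 5.43% of all clusters and 11.9% of those with a mean of at least 6. The mu class enzymes conjugate a wide range of electrophiles. Gstm2 was at 9.34 and 9.37 in 6Y, 8.78 and 8.80 in 16Y, and 8.84 and 9.05 in 42Y, against 9.18 and 9.01 in 1, 9.34 and 9.21 in 6K, and 9.58 and 9.45 in 42WKK. The 16Y arrays and 42Y-1 were the 3 lowest, and the 42WKK arrays the 2 highest. Gstm2 fell by 0.57 in 42Y against 42WKK (standard error 0.11, 0.674-fold, limma adjusted p = 0.0485), and 16Y minus 6Y was -0.56 (adjusted p = 0.0516).

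Gstm6 was at 8.73 and 8.76 in 6Y, 8.31 and 8.15 in 16Y, and 8.60 and 8.64 in 42Y, against 8.55 and 8.58 in 1, 8.69 and 8.68 in 6K, and 9.14 and 9.13 in 42WKK. The 16Y arrays lay below all others and the 42WKK arrays above all others. Gstm6 fell by 0.52 in 42Y against 42WKK (standard error 0.09, 0.699-fold, limma adjusted p = 0.0367) and by 0.51 in 16Y against 6Y (standard error 0.09, 0.701-fold, adjusted p = 0.0388). The difference of 42WKK against 6K was 0.45 (adjusted p = 0.0631), and 42Y against 6Y gave -0.12 (95% interval -0.33 to 0.09).

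For both Gstm2 and Gstm6 the 42Y against 42WKK call was lost with any 1 of the 12 arrays left out (adjusted p up to 0.267 and 0.243 over all alternatives), without 6K and after quantile normalization. The 16Y against 6Y call of Gstm6 was also lost after quantile normalization, without 6K and with any array left out except 42Y-1 and 42Y-2 (adjusted p up to 0.199 over all alternatives). The 2 calls of Gstm6 rest on the 42WKK arrays being high and the 16Y arrays being low, and its 42Y arrays lay within the 8.55 to 8.76 spanned by 1, 6K and 6Y.

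Gstm3 was at 11.37 and 11.29 in 6Y, 10.18 and 10.43 in 16Y, and 10.87 and 11.09 in 42Y, against 11.16 and 10.68 in 1, 11.39 and 11.25 in 6K, and 11.31 and 11.17 in 42WKK. Both 16Y arrays lay below the other 10, with 1-5 next. Gstm3 fell by 1.02 in 16Y against 6Y (standard error 0.17, 0.492-fold, limma adjusted p = 0.0335), while 42Y minus 42WKK was -0.27 (95% interval -0.66 to 0.12). A second Gstm3 cluster, not used for the count, was at 9.27 and 9.65 in 16Y against 10.97 and 10.85 in 6Y, and fell by 1.45 (adjusted p = 0.0316). Its 42Y minus 42WKK difference was -0.55 (95% interval -1.08 to -0.01, limma adjusted p = 0.281), larger than that of the cluster used. The second cluster is numbered between those of Gstm6 and Gstm2. The cluster used is numbered close to that of Sult3a1, a gene of chromosome 10, and where it maps was not checked. The call of the cluster used was lost with either array of 6Y, 16Y, 6K or 42WKK left out and without 6K (adjusted p up to 0.167 over all alternatives).

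The other 4 Gstm genes did not pass. Gstm7 ranged from 9.05 to 9.60, and 16Y minus 6Y was -0.45 (limma adjusted p = 0.0786). Gstm1 stayed between 12.27 and 12.80, Gstm4 between 8.93 and 9.64 and Gstm5 between 6.39 and 7.35. Of the 7 Gstm genes, 6 had a lower mean in 16Y than in 6Y (median -0.45, against 0.04 over all clusters), and all 7 had a higher mean in 42Y than in 16Y (median 0.34), although none passed there. After quantile normalization these counts were the same. Means were lower in Y than in other groups for all 7 (median -0.12), and none passed. The pairs of the same number did not show this for the class. At number 6, 5 of the 7 were higher in 6Y than in 6K and 2 lower (median 0.06). At number 42, 4 were higher in 42Y than in 42WKK and 3 lower (median 0.01), the lower ones including Gstm2 and Gstm6.

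Gstm2, Gstm3, Gstm6 and Gstm7 neighbour each other on chromosome 3 in RefSeq. Closely related genes can share probe sequence, which makes their signals uncertain between members, and probe overlap was not computed. Windows of Gstm2 (chr3:107986371-107986670) and Gstm3 (chr3:107969125-107969424) are shown as those of neighbouring genes that passed. The windows hold little of the transcript, so they cannot show whether probes are shared. Both are RefSeq sequences of build GRCm38.p6, minus strand, from 250 bases before to 50 after the start, and capitals mark the longest run of bases common to both.
Gstm2: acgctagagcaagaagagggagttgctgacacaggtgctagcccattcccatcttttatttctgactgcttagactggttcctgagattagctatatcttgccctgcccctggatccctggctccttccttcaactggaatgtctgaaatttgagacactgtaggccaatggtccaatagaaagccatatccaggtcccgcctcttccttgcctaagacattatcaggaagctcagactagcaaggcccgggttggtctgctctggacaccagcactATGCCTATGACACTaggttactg
Gstm3: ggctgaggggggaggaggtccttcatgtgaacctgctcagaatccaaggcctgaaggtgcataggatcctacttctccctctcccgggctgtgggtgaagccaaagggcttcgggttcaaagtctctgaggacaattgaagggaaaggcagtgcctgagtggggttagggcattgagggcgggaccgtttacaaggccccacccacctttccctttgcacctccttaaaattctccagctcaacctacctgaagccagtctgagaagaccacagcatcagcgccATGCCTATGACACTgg
The shared run is 14 bases long and starts at base 28 of Gstm2 and at base 35 of Gstm3, counted with the gene's first base included. No other of the 32851 windows held it in full, including the 10 further windows of Gstm genes. The run was picked from the Gstm2 and Gstm3 windows, and all windows stop 50 bases after the start. A Gstm1 window ends in atgccta, the opening bases of the run, so the rest could not be seen there. A Gstm7 window holds atgcccatgacact, which has c in place of t. The count therefore does not show that the run is peculiar to Gstm2 and Gstm3. Neither the Gstm2 nor the Gstm3 window held any of the 4 motifs searched.

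Gstt3, of the theta class, was low in both groups of number 6. It was at 7.09 and 7.48 in 6Y, 7.98 and 8.32 in 16Y, and 8.23 and 8.18 in 42Y, against 7.94 and 7.95 in 1, 7.14 and 6.90 in 6K, and 8.11 and 7.70 in 42WKK. All 4 arrays of 6Y and 6K lay below the other 8. Single differences missed the threshold, at 0.86 in 16Y against 6Y (standard error 0.19, limma adjusted p = 0.0617), 0.92 in 42Y against 6Y (adjusted p = 0.0522) and 0.89 in 42WKK against 6K (adjusted p = 0.0731). The F call was lost with each array left out except 6Y-2 (adjusted p up to 0.0797). Gstt1 ranged from 9.40 to 9.87 and Gstt2 from 5.99 to 6.81, and both had lower means in 6Y and 6K than in 16Y, 42Y and 42WKK. Gstt4 lay between 2.85 and 3.28.

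The alpha class was split by the rule. Gsta4, which clears the lipid peroxidation product 4-hydroxynonenal, was at 9.50 and 9.65 in 6Y, 10.03 and 9.84 in 16Y, and 10.09 and 10.26 in 42Y, against 10.08 and 9.86 in 1, 9.66 and 9.54 in 6K, and 10.19 and 10.15 in 42WKK. Its 6Y and 6K arrays were the 4 lowest, and no difference passed, the largest being 0.60 in 42Y against 6Y (standard error 0.12, limma adjusted p = 0.0542). Gsta3, which detoxifies aflatoxin in mice, was at 11.80 and 11.88 in 6Y, 11.98 and 11.77 in 16Y, and 11.57 and 11.84 in 42Y, against 12.12 and 12.08 in 1, 12.02 and 11.99 in 6K, and 12.16 and 12.18 in 42WKK. Its Y arrays were all below its other arrays, 16Y-1 and 6K-2 by a narrow margin. Its difference of Y against other groups was -0.29 (95% interval -0.44 to -0.13, adjusted p = 0.155), and that of 42Y against 42WKK -0.47 (adjusted p = 0.0986).

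Gsta1 and Gsta2, inducible alpha class enzymes, were measured only by 4 clusters annotated to both and to Gm3776 and Gm10639, so they were not members and cannot be told apart. These clusters differed between number 6 and the rest far more than any member did, and they were noticed after their values were seen. They lay between 5.59 and 6.69 in 6Y, 7.75 and 8.96 in 16Y, and 8.28 and 9.51 in 42Y. In the other groups they lay between 7.76 and 9.52 in 1, 5.65 and 6.85 in 6K, and 8.32 and 9.53 in 42WKK. For each cluster, the 4 arrays of 6Y and 6K were the lowest.

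All 4 clusters rose in 16Y against 6Y by 2.11 to 2.30 (4.33-fold to 4.93-fold, limma adjusted p 0.00236 to 0.00383), in 42Y against 6Y by 2.67 to 2.82 (adjusted p 0.000296 to 0.000462) and in 42WKK against 6K by 2.58 to 2.82 (adjusted p 0.000403 to 0.00053). The differences of 42Y against 42WKK were -0.05 to 0.00, and those of 6Y against 6K -0.09 to 0.00, each with a standard error of 0.14 to 0.18. All 12 calls held with any 1 array left out, except that 2 of the 4 in 16Y against 6Y were lost without 16Y-1 or without 16Y-2 (adjusted p up to 0.0541). The 4 clusters can share probes and are not separate measurements.

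**Figure D4:**
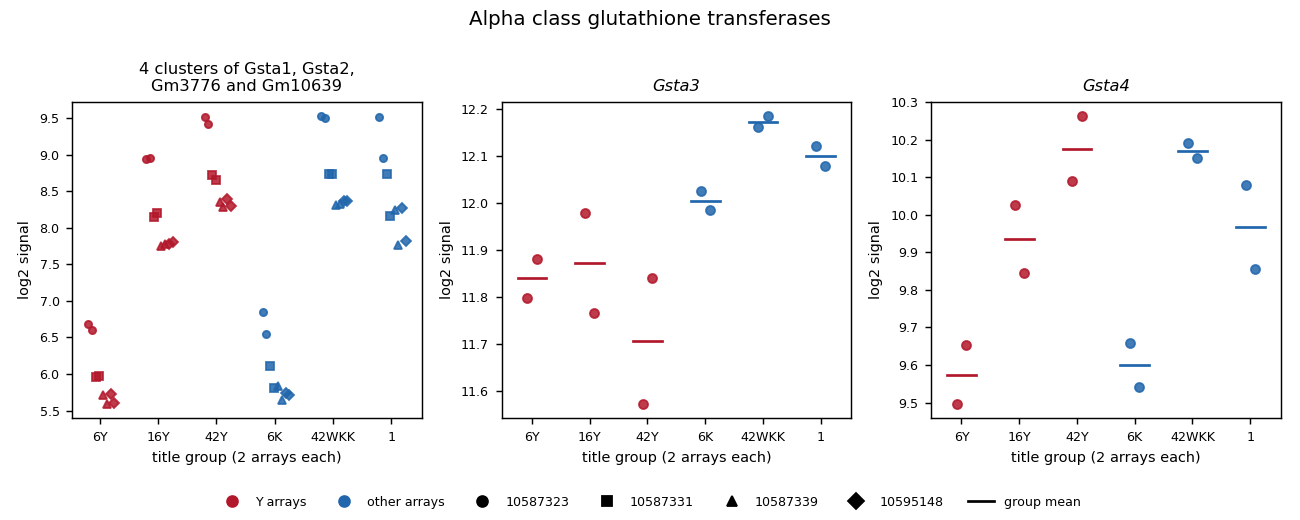
Log2 signal of the 4 clusters annotated to Gsta1, Gsta2, Gm3776 and Gm10639 (left, a symbol for each cluster), of Gsta3 (middle) and of Gsta4 (right) in the 12 arrays by title group, Y groups in red and left, others in blue, with lines at group means for Gsta3 and Gsta4. Each panel has its own axis. The shared clusters are at 5.59 to 6.85 in 6Y and 6K and at 7.75 to 9.53 elsewhere.

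The pi class gene Gstp1 was at 11.78 and 12.11 in 6Y, 11.66 and 12.22 in 16Y, and 12.20 and 12.24 in 42Y, against 12.69 and 12.69 in 1, 12.32 and 12.35 in 6K, and 11.90 and 11.96 in 42WKK. The 2 arrays of group 1 were the highest, and no comparison passed (limma, F adjusted p = 0.0959). Gstp3 ranged from 11.75 to 12.42. Of the kappa, omega and zeta classes, Gstk1 of mitochondria and peroxisomes ranged from 9.59 to 10.23, Gstz1, an enzyme of tyrosine breakdown, from 10.72 to 11.26, Gsto1 from 8.05 to 8.48 and Gsto2 from 3.60 to 4.03. None of these 4 passed (adjusted p of F 0.36 for Gstk1 and 0.30 for Gstz1).

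Of the 10 glucuronosyltransferases only Ugt2b38 passed, and by F alone, where 5.43% of all clusters passed. It was at 9.78 and 9.34 in 6Y, 9.38 and 9.40 in 16Y, and 9.30 and 9.54 in 42Y, against 9.45 and 9.41 in 1, 10.13 and 10.13 in 6K, and 9.97 and 10.24 in 42WKK. The 4 arrays of 6K and 42WKK lay above all 8 others, and the arrays of group 1 lay with the Y arrays. The difference of 42Y against 42WKK was -0.69 (standard error 0.16, limma adjusted p = 0.0771) and that of 6Y against 6K -0.57 (standard error 0.16, adjusted p = 0.817). The F call was lost after quantile normalization and with any array left out except 6Y-1 and 6Y-2 (adjusted p up to 0.127).

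Ugt2b1 ranged from 11.27 to 11.87 and Ugt2b34 from 11.19 to 11.86, and in 42Y against 42WKK they differed by -0.22 (95% interval -0.54 to 0.09) and -0.34 (95% interval -0.62 to -0.07, limma adjusted p = 0.202). Of the 8 Ugt2 genes, 7 had lower means in 42Y than in 42WKK (median -0.21, against 0.02 over all clusters) and 7 had lower means in 6Y than in 6K (median -0.17), and none passed. Over all Y against other groups, which include group 1, 6 were lower and 2 higher (median -0.05). Within the Y groups, 7 were also lower in 42Y than in 6Y (median -0.15). Ugt2b37 had its highest mean in 6K, and none of its differences passed. These genes lie in tandem and are close in sequence, so signals may be shared between them.

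Ugt3a1 and Ugt3a2, whose human counterparts use other sugars than glucuronic acid, did not pass. Ugt3a1 was lowest in 1-5 at 8.47 and otherwise lay between 8.88 and 9.47, and Ugt3a2 was lowest in the same array at 11.01 and otherwise between 11.28 and 11.67. The joint Ugt1a cluster, which covers the bilirubin enzyme Ugt1a1 and 7 further genes, ranged from 9.57 to 10.12 and did not pass (F adjusted p = 0.175).

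The donors and partners of these enzymes were described from lists of genes. Of all clusters, 1.85% passed in 42Y against 42WKK, 1.78% in 16Y against 6Y and 1.83% in 42Y against 6Y. The shares were 1.01% in 42WKK against 6K, 0.399% in 42Y against 16Y and 0.208% in Y against other groups. UDP-glucuronic acid is made by Ugdh, which rose by 0.73 in 42Y against 6Y (limma adjusted p = 0.0284) and by 0.70 in 42WKK against 6K (adjusted p = 0.0441). It was 1 of 6 genes of that list, of which Nt5e, a nucleotidase at the cell surface, fell in 16Y against 6Y, in 42Y against 6Y and in 42WKK against 6K, by 1.65, 1.88 and 1.61. Nt5e was at 8.68 and 8.82 in 6Y and 8.51 and 8.03 in 6K, and between 6.63 and 7.14 in the 8 other arrays.

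Of 9 genes of sulfate donor supply and removal, 2 fell in 16Y against 6Y, where 1.78% of all clusters passed. They were Papss1, which makes PAPS, by 0.71 (standard error 0.10, limma adjusted p = 0.0275), and the sulfate transporter Slc26a1, by 0.78 (adjusted p = 0.0468). Slc26a1 also fell in 42Y against 6Y, by 0.81, and Slc35b3, which carries PAPS into the Golgi, rose by 0.50 in 42Y against 42WKK (adjusted p = 0.0459). Papss1 was at 5.89 and 5.94 in 16Y, below all other arrays, and at 6.52 and 6.72 in 6Y.

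Of 13 genes of glutathione synthesis and turnover, Gss (glutathione synthetase) and Cbs (cystathionine beta-synthase) fell in 16Y against 6Y by 0.60 (limma adjusted p = 0.0318) and 0.63 (adjusted p = 0.04). Chac1, which breaks glutathione down, was at 6.76 to 7.27 in the 6 Y arrays and 6.27 to 6.53 in the 6 others. It rose by 0.92 in 42Y against 42WKK (standard error 0.10, adjusted p = 0.00753) and by 0.65 over all Y against other groups (adjusted p = 0.00999). In 6Y against 6K it did not pass. Of 9 glutathione transferases of other families, such as the microsomal Mgst genes, 0 passed by F or in a comparison in the limma fit, and 4 had an unadjusted F p under 0.05, as did 26.4% of all clusters.

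Of 11 other conjugating enzymes, the acetyltransferases Nat1 and Nat8 fell in 42Y against 42WKK, by 0.69 (limma adjusted p = 0.0304) and 0.86 (adjusted p = 0.0328). Of 12 transporters of conjugates, Abcc2, the bile canalicular export pump, rose by 0.49 in 16Y against 6Y (adjusted p = 0.037). The uptake carrier Slco1a4 fell by 1.12 in 42Y against 42WKK (adjusted p = 0.0436) and rose by 1.33 in 42WKK against 6K (adjusted p = 0.0343), and it was high only in 42WKK, at 6.15 and 6.13, against 4.73 to 5.74 in the 10 other arrays.

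None of the 10 receptors and sensors of xenobiotics passed by F or in a comparison in the limma fit, while 6 had an unadjusted F p under 0.05 (26.4% of all clusters). Of the P450 genes that CAR and PXR induce, Cyp2b10 moved most. It was at 9.65 and 9.48 in 6Y, 11.55 and 11.55 in 16Y, and 11.02 and 10.88 in 42Y, against 11.16 and 10.86 in 1, 9.46 and 9.34 in 6K, and 7.69 and 8.20 in 42WKK. The gene rose by 3.00 in 42Y against 42WKK (adjusted p = 0.000556) and by 1.98 in 16Y against 6Y (adjusted p = 0.00678), but the group 1 arrays were as high as those of 42Y. It also rose in 42Y against 6Y, by 1.38, and over all Y against other groups, by 1.23 (adjusted p = 0.00616), and fell by 1.46 in 42WKK against 6K. Of the 7 genes on that list, Cyp3a13 also passed over all Y against other groups, with a rise of 0.47 (adjusted p = 0.0457). Of 10 NRF2 targets outside the transferases, Hmox1 rose in 42Y against 6Y by 1.98, in 42Y against 16Y by 1.31 and in 42WKK against 6K by 1.60, and no other passed. Of 6 aryl hydrocarbon receptor targets, Tiparp rose by 2.66 in 42Y against 42WKK (adjusted p = 0.0387), and by 2.56 in 42Y against 6Y, and its 42Y arrays differed from each other, at 8.88 and 7.02.

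The group means of the 3 genes with the largest F were also compared with those of 185 genes, the other members and the listed genes, as a description over 6 means. Sult1e1 was most like the P450 genes Cyp2c50 (r = 0.93) and Cyp2c37 (r = 0.902) and Xist (r = 0.90). Gstm6 was most like Papss1 (r = 0.947), Ttr (r = 0.938) and Baat (r = 0.933). Sult1d1 was most like Gstk1 (r = 0.992), Hnmt (r = 0.875) and Cyp2e1 (r = 0.867). The 6 means share arrays and number few, and Xist was near its floor.

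Markers of other cells were read in the same comparisons. In 16Y against 6Y, where Gstm3, Gstm6, Sult1d1 and Sult1e1 changed, the endothelial marker Clec4g fell by 1.20 (limma adjusted p = 0.0408). It was 1 of 3 on its list, against 1.78% of all clusters. The array means of that list were 7.22 to 7.46 in 16Y and 7.89 to 8.29 in 6Y. In 42Y against 42WKK, 3 neutrophil genes had array means of 4.90 to 5.39 in 42Y and 4.36 to 4.43 in 42WKK, and 3 stellate cell genes 7.49 to 7.84 in 42Y and 8.14 to 8.45 in 42WKK. In each list 0 of 3 genes passed in the limma fit and 2 of 3 had an unadjusted p under 0.05, against 17.3% of all clusters. At that level, 0 of the Kupffer, T cell, endothelial and cholangiocyte genes and 1 of 2 B cell genes differed between 42Y and 42WKK. Hepatocyte genes had array means of 13.21 to 13.23 in 42Y and 13.36 to 13.38 in 42WKK. Some genes that differ between the sexes in mouse liver passed as well. Of 5 genes that are higher in males, 1 passed in 42Y against 42WKK (Elovl3, which fell by 1.42, limma adjusted p = 0.00186) and 1 in 16Y against 6Y (Hsd3b5, which fell by 1.87, adjusted p = 0.00303). The shares of all clusters were 1.85% and 1.78%. The median difference of the 5 was -0.26 in 42Y against 42WKK and 0.08 in 16Y against 6Y. In 42Y against 6Y, 2 of the 5 passed, both lower (1.83% of all clusters, median of the 5 -0.03). Over all Y against other groups 2 passed as well, both lower (0.208%, median -0.18). In the test of whether the Y difference at number 42 differed from that at 6, 1 passed, with a negative value (0.143%). In 42Y against 16Y, Hsd3b5 rose by 0.93 and Elovl3 fell by 1.20. Of 4 genes that are higher in females, Cyp2b9 rose by 1.25 in 16Y against 6Y (adjusted p = 0.0397), and none passed in another comparison. The part of these cells and programmes in the transferase values was not tested.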

How the data were processed

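Affymetrix arrays of 12 samples were analysed. The authors deposited RMA log2 values for transcript clusters. The submitters' processing notes name Affymetrix Expression Console, and the methods name the sketch version of robust multichip analysis. The methods speak of an exon array, but cluster numbers belong to the gene array, and no source used here names a genome build. Gene symbols came from the platform annotation, which can be old, and all 45 member symbols were found in RefSeq.

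Means of the 6 groups were fitted to all 12 arrays with limma (version 3.58.1, R 4.3.3, lmFit and eBayes, no trend), giving 8 comparisons and an F test, with p adjusted over all 35556 clusters. The fit was tested on simulated data. Genes named with values were those that passed a test, the 2 with the highest mean in each subfamily, a short fixed list, and listed genes that passed in a comparison, and other members are given by ranges. Members, lists and rules were chosen with earlier results of these data known. No scan date or other batch is given. The number of arrays limits the precision. Replicate numbers 1 and 2 did not pair the samples, since deviations from group means correlated at -0.036 to 0.055.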

Additional observations from a re-analysis of the deposited data

Results flagged for a closer look

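In 26 named genes, the 6 Y arrays and the 6 other arrays were each searched for a single array far from the rest, 52 sets in all, and 2 had one (chance gives about 1 in 20). Gstm3 in array 1-5 was the lowest of the 6 other arrays at 10.68, with the next at 11.16. Ugt2b1 in array 6Y-1 was the highest of the 6 Y arrays at 11.87, with the next at 11.60. Both sets join 3 title groups, so a difference between groups can also set an array apart.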

How the results depend on the processing

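Counts are members passed, and percentages in brackets are shares of the clusters tested. No such share was computed after quantile normalization, with an array or group left out, or for genes past any test. No named call changed sign in any alternative run. In 42Y against 42WKK, 3 became 5 with a mean of at least 6, a variance trend or clusters of 1 symbol (14.6%, 3.13% and 4.59% of the clusters tested), 1 without 6K, 0 after quantile normalization, 0 on the arrays compared alone and between 0 and 1 when single arrays were dropped. A test of those 4 arrays without shared variance gave 10 at an unadjusted p under 0.05 (10.7% of all clusters) and 0 after adjustment, and the methods name software but no test. In 16Y against 6Y, 4 became 8 with the mean filter (17.1% of the clusters tested), 7 with the trend (3.79%), 7 with 1 symbol (5.41%), 2 without 6K, 0 on the arrays compared alone and between 0 and 5 when single arrays were dropped. In 42Y against 6Y, 1 became 5, 3 and 3 in the filter, trend and 1-symbol fits (11.3%, 2.75% and 5.54%), 3 after quantile normalization and 0 on the arrays compared alone. In 42WKK against 6K, 1 became 8, 5 and 6 in those 3 fits (12.4%, 2.38% and 2.97%), 0 on the arrays compared alone and between 0 and 2 when single arrays were dropped. In Y against other, 1 became 4, 2 and 2 (4.65%, 0.596% and 1.34%), and 0 after quantile normalization, without 6K or without 42Y (both chosen after seeing the data) and with each array left out. In 42Y against 16Y, 0 became 3 and 1 with the filter and the trend (6.85% and 0.998%), and between 0 and 1 when single arrays were dropped, and the test of the difference gave 2 with the filter (5.28%). By F, 8 became 19 with the filter (43.4%), 12 with the trend (10.5%), 13 with 1 symbol (15.6%) and between 1 and 5 when single arrays were dropped, and genes past any test went to 19, 14 and 14 in the filter, trend and 1-symbol fits and fell to between 1 and 6 when single arrays were dropped. With an array left out, the lone array of its group is assumed to vary like the others. The filtered and 1-symbol fits test fewer clusters, and otherwise the cause was not tested. With the replicate block on 8 arrays, 0 members passed in 16Y against 6Y and 0 in 42Y against 6Y, where 0 and 1 passed on the same arrays without it, so the block itself ended 1 call, and clusters passed were 62 and 170 in 42Y against 6Y.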
